A study of Homo sapiens with 8 samples.

Results

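RNA m6A writers and erasers are the proteins that place N6-methyladenosine on RNA and take it off. The set described here holds 10 listed genes, matched to Ensembl identifiers by their GENCODE symbols, out of 57500 genes in the counts table. All 10 were among the 19171 genes with enough reads to be tested. They are the writer core METTL3 and METTL14, the writer's regulatory subunits WTAP, VIRMA, ZC3H13, RBM15 and CBLL1, the separate writer METTL16, and the erasers FTO and ALKBH5.

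RNAseq was performed on HEK293T cells, a human embryonic kidney line, exposed for 48 h to 100 µM of 3-deazaneplanocin A (DZNep, 4 libraries) or to vehicle only (Control, 4 libraries). DZNep inhibits AHCY, the enzyme of the methionine cycle that clears S-adenosylhomocysteine. In the study DZNep was used to ask how the thermal stability of proteins changes. Transcript and protein abundance were measured beside it, to separate direct from indirect effects on stability. The study calls the libraries of a group biological replicates. The labels name no separate cultures, so p-values measure the spread between these libraries, at 1 dose and 1 time in 1 cell line.

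In most m6A deposition, METTL3 transfers the methyl group of S-adenosylmethionine to adenosine and METTL14 helps to hold the RNA, while the regulatory subunits bring this core to its sites in nuclear RNA. METTL16 works apart from that complex, on the U6 small nuclear RNA and on hairpins of the MAT2A mRNA, and FTO and ALKBH5 are iron-dependent dioxygenases that remove the mark. Methyltransferases of this kind are inhibited by S-adenosylhomocysteine. The libraries measured the transcripts of these enzymes, not their protein, activity or the mark.

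Library totals ranged from 25043058 counts (Control 1) to 44902779 (DZNep 2). Mitochondrial genes took 7.76, 3.02, 3.16 and 13.7% of the counts in Control 1 to 4 and 7.04, 4.25, 4.44 and 10.1% in DZNep 1 to 4, so replicates 1 and 4 were high in both groups. The HEK293 markers VIM, CDH2, NEFM, LHX1 and PAX2 were detected in every library. The 5 markers of other cell types summed to 185 to 254 normalized counts in Control and 219 to 427 in DZNep, where KRT5 made up 296 of the highest sum. CD3E, a T cell marker, was at 0 in all Control libraries and at 8.16, 16.9, 15.5 and 40.5 normalized counts in DZNep 1 to 4, and whether this has a part in any result was not tested. Since RNA came from whole cultures, fewer cells with a transcript and less of it per cell cannot be told apart.

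Levels are given as normalized counts, which are read counts divided by 1 size factor per library, for replicates 1 to 4 in that order. Unless another fit is named, log2 fold changes come from edgeR's fit, which scales the libraries in another way (TMM). They can therefore differ slightly from the ratio of the printed means. A gene is called at an adjusted p under 0.05 in edgeR's quasi-likelihood test, with Benjamini-Hochberg adjustment over all genes tested. Of the 10 writers and erasers, 6 were higher in DZNep by this rule (METTL14, WTAP, RBM15, CBLL1, METTL16 and ALKBH5), 0 were lower and 4 did not pass (METTL3, VIRMA, ZC3H13 and FTO). Over all genes tested, 19.1% were called higher and 21.8% lower, 40.8% in all. With the study's added demand of a log2 fold change beyond 1, only RBM15 was called, against 10.6% of all genes called higher and 13.5% called lower, 24.2% in all. The median log2 fold change of the 10 genes was 0.61, within a range of −0.18 to 1.80, beside a median of −0.03 over all genes tested. In the same 6 genes every DZNep library lay above every Control library, as it did in 19.5% of all genes, and in the other 4 the groups overlapped.

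**Figure D1:**
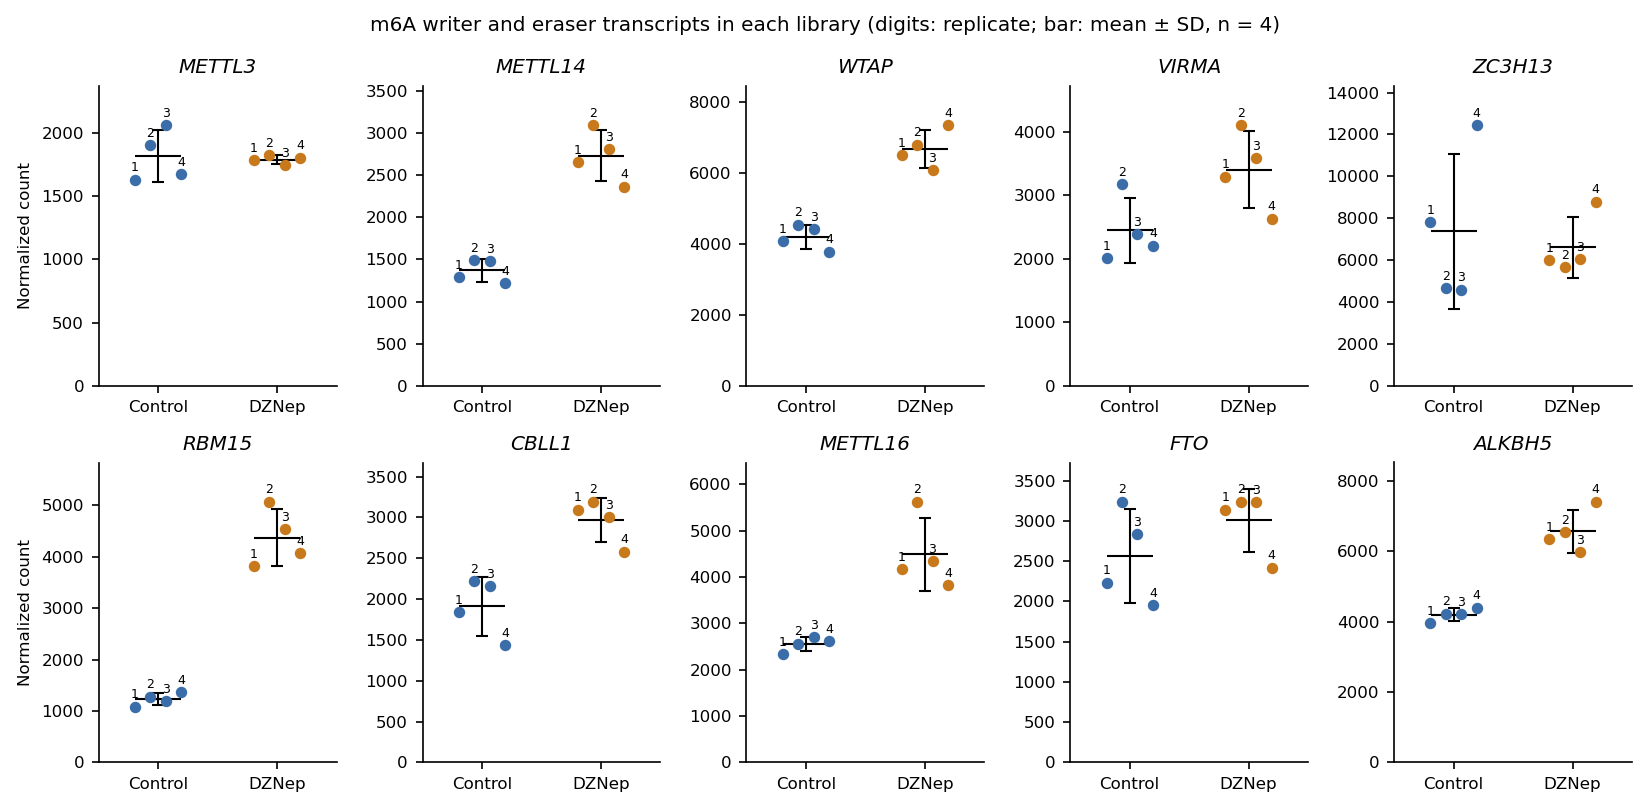
Normalized counts of the 10 writers and erasers in each library, on a linear axis from 0 with a scale of its own in each panel. Points are libraries numbered by replicate, blue for Control and orange for DZNep, and the bars give the mean and SD of 4. In METTL14, WTAP, RBM15, CBLL1, METTL16 and ALKBH5 the orange points all lie above the blue ones, while in METTL3, VIRMA, ZC3H13 and FTO they overlap.

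The writer core split. METTL14 (ENSG00000145388, chr4:118685392-118715433, GRCh38, plus strand), the partner that supports the catalytic subunit and binds RNA, was at 1290, 1488, 1476 and 1219 normalized counts in Control and at 2654, 3091, 2806 and 2361 in DZNep. No DZNep library came near the Control range. The means were 1369 ± 135 and 2728 ± 304 (SD, n = 4 each). The fitted log2 fold change was 0.97 ± 0.14 (SE, adjusted p = 0.000473 in edgeR's quasi-likelihood test), which 12.1% of all tested genes reached or passed. Within replicate numbers its log2 ratio of DZNep to Control was 1.04, 1.05, 0.93 and 0.95.

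METTL3 (ENSG00000165819, chr14:21498133-21511342, minus strand), the catalytic subunit, was at 1629, 1902, 2060 and 1673 normalized counts in Control and at 1786, 1822, 1743 and 1802 in DZNep. The DZNep values lay close together, inside the Control range. The means were 1816 ± 202 and 1788 ± 33.6 (SD, n = 4 each). The fitted log2 fold change was −0.05 ± 0.13 (SE, adjusted p = 0.785 in edgeR's quasi-likelihood test). Its sign was not stable: without Control 3 the log2 fold change was 0.012, and with library totals as the sole scaling it was 0.020. METTL3 shares 388 bp of exon with TOX4 on the other strand. TOX4, a chromatin-associated protein gene, had 2219 ± 511 normalized counts in Control and 3580 ± 519 in DZNep (log2 fold change 0.66, adjusted p = 0.0189 in edgeR's quasi-likelihood test), and whether reads of the shared stretch moved between the genes was not tested.

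As a ratio within a library, which does not depend on the scaling between libraries, METTL3 counts over METTL14 counts were 1.26, 1.28, 1.40 and 1.37 in Control and 0.673, 0.589, 0.621 and 0.763 in DZNep. METTL3 reads thus outnumbered METTL14 reads in all 4 Control libraries, and METTL14 reads outnumbered METTL3 reads in all 4 DZNep libraries. The mean log2 ratio was 0.41 in Control and −0.60 in DZNep, a difference of −1.01. A two-sided exact permutation test gave p = 0.0286, the smallest that 4 against 4 allow, and 0.0571 after adjustment over the 2 ratios tested, so the difference did not pass the correction. A sign-flip over the 4 replicate pairs, all of them lower in DZNep, gave an exact p of 0.125, also the smallest possible. The length of the genes does not enter the difference between groups, in which each gene is set against itself. It does enter whether a ratio lies above or below 1, with 5.861 kb of exon for METTL3 and 6.838 kb for METTL14. The ratio says nothing of protein stoichiometry.

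**Figure D2:**
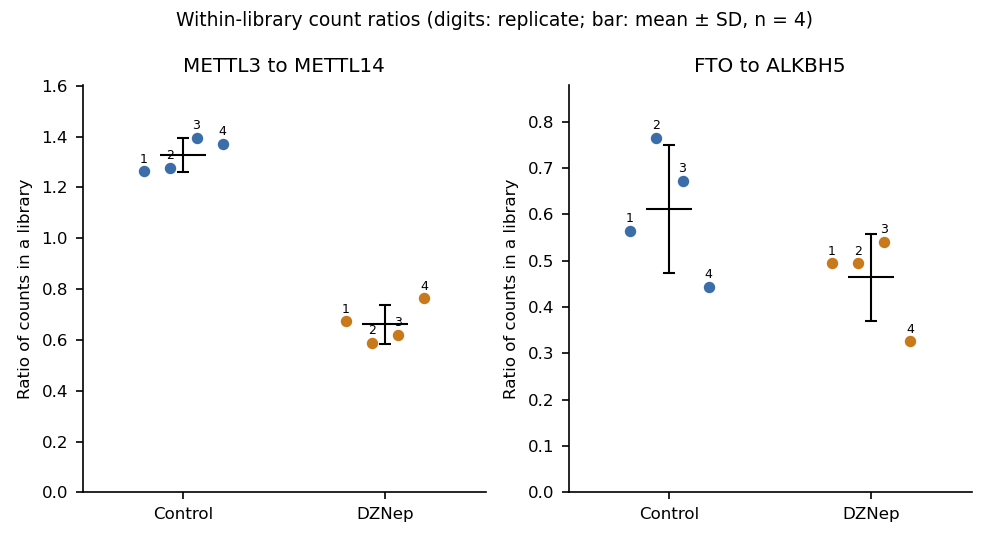
Ratio of METTL3 to METTL14 counts (left) and of FTO to ALKBH5 counts (right) in each library, on linear axes from 0. Points are libraries numbered by replicate, and the bars give the mean and SD of 4. The METTL3 to METTL14 ratio was above 1 in every Control library and at most 0.763 in every DZNep library, while the FTO to ALKBH5 ratios overlapped.

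The letters just upstream of the core genes are shown because these genes behaved differently. The 250 bases before the METTL14 start in RefSeq (GRCh38.p14, chr4:118685142-118685391, plus strand) and 248 bases before the METTL3 start (chr14:21511343-21511590, minus strand) read, 5′ to 3′ with CCAAT on either strand in capitals:
METTL14: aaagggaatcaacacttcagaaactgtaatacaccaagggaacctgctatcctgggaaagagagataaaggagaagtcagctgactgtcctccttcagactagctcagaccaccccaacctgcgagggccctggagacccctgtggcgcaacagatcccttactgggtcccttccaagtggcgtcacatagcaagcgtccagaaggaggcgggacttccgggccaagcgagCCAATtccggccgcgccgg
METTL3: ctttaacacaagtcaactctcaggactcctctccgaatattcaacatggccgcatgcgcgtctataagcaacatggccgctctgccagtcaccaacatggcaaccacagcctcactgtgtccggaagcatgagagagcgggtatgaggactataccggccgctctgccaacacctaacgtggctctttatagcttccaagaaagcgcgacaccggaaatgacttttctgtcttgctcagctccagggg
METTL14 holds 1 CCAAT, beginning 19 bases before the start, and METTL3 holds 0. Both windows hold 2 matches to CCGGAA on either strand, at 35 and 15 bases before the start in METTL14, where the nearer match shares 1 base with CCAAT, and at 130 and 39 in METTL3. Of 35116 RefSeq promoter windows of this length, 32.0% hold at least 1 CCAAT and 3.17% hold at least 2 CCGGAA. These matches are letters in a window, not shown to be bound.

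Of the 5 regulatory subunits, 3 were higher in DZNep, 0 were lower and 2 did not pass, with a median log2 fold change of 0.61. Of all genes tested, 19.1% were called higher and 21.8% lower. RBM15 (ENSG00000162775, chr1:110338506-110346681, plus strand), an RNA-binding protein that recruits the writer to particular RNAs, had the largest change of the 10 genes. It was at 1084, 1276, 1198 and 1370 normalized counts in Control and at 3815, 5073, 4533 and 4070 in DZNep. The lowest DZNep library stood well clear of the highest Control library. The means were 1232 ± 121 and 4373 ± 554 (SD, n = 4 each), a 3.55-fold ratio. The fitted log2 fold change was 1.80 ± 0.15 (SE, adjusted p = 2.26e-05 in edgeR's quasi-likelihood test), which 5.11% of tested genes reached or passed. Its log2 ratio within replicate numbers was 1.82, 1.99, 1.92 and 1.57.

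RBM15 is mostly 1 long coding exon, and its RefSeq start lies downstream of the first base that GENCODE gives to the gene, so the 250 bases before that start (chr1:110339127-110339376, GRCh38.p14, plus strand) fall wholly in annotated exon. They hold 4 CCAAT, a number that 0.874% of promoter windows reach, and 2 GGGCGG, which overlap none of them. The 25 bases around each CCAAT, in capitals, are shown since no other of the 9 members with a RefSeq window held more than 1:
RBM15 site 207 bases before the start (chr1:110339160-110339184): gactttttgtCCAATcaacacctca
RBM15 site 107 bases before the start (chr1:110339260-110339284): acaaatgtaaCCAATgaggtactcc
RBM15 site 74 bases before the start (chr1:110339293-110339317): ggttgggaacCCAATaacagtggtt
RBM15 site 5 bases before the start (chr1:110339362-110339386): aataattttcCCAATgagactgtag
At least 1 CCAAT was found for 6 of the 9 (32.0% of all windows), namely RBM15, METTL14, WTAP, CBLL1, METTL16 and ZC3H13, of which ZC3H13 was not called. None was found for METTL3, FTO and ALKBH5, of which ALKBH5 was called. As for RBM15, the CBLL1 window and the WTAP window with a CCAAT fall wholly in annotated exon. WTAP has a further window that holds 0 CCAAT, and a link of these letters to the calls was not tested. GGGCGG was found for 4 of the 9 (42.6% of all windows) and CCGGAA for 5 (14.5%). VIRMA had no entry.

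RBM15B, the paralog of RBM15 with a similar role in the writer, was picked for comparison after its values were seen, so it is a description with no test of the difference. It was at 4020 ± 232 normalized counts in Control and 4189 ± 274 in DZNep (SD, n = 4 each). The fitted log2 fold change was 0.03 (adjusted p = 0.861 in edgeR's quasi-likelihood test). Counts of RBM15 over those of RBM15B were 0.275, 0.327, 0.310 and 0.314 in Control and 0.951, 1.13, 1.05 and 1.04 in DZNep. RBM15 reads were thus a minority of the pair in Control and about level with RBM15B reads in DZNep, without regard to exon length. Per kb of exon, RBM15 was at 264 normalized counts in Control and 936 in DZNep, and RBM15B at 607 and 632. RBM15B shares 1325 bp of exon with DCAF1 on the opposite strand, and the part of this in the ratio was not tested.

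WTAP (ENSG00000146457, chr6:159725585-159756319, plus strand), the adaptor that holds the core in nuclear speckles, was at 4070, 4538, 4405 and 3777 normalized counts in Control and at 6500, 6788, 6081 and 7343 in DZNep. Replicate 4 was the lowest Control library and the highest DZNep library. The means were 4197 ± 342 and 6678 ± 530 (SD, n = 4 each). The fitted log2 fold change was 0.64 ± 0.13 (SE, adjusted p = 0.00351 in edgeR's quasi-likelihood test). WTAP shares 437 bp of exon with SOD2 on the opposite strand, and SOD2 was not used here.

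CBLL1 (ENSG00000105879, chr7:107743073-107761667, plus strand), which encodes the HAKAI ubiquitin ligase, was at 1841, 2221, 2159 and 1435 normalized counts in Control and at 3094, 3194, 3007 and 2582 in DZNep. The gap between the groups was smaller than for WTAP, and replicate 4 was lowest in both. The log2 fold change was 0.61 ± 0.17 (SE, adjusted p = 0.0144 in edgeR's quasi-likelihood test), and leaving out 1 library at a time moved it between 0.48 and 0.68, with an adjusted p of at most 0.0447.

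VIRMA (ENSG00000164944, chr8:94487689-94553529, minus strand), the large scaffold of the regulatory subunits, was at 2012, 3176, 2389 and 2203 normalized counts in Control and at 3293, 4101, 3584 and 2632 in DZNep. The groups overlapped through Control 2 and DZNep 4, although DZNep was above Control in all 4 replicate pairs. The log2 fold change of 0.45 ± 0.19 (SE) missed the threshold (adjusted p = 0.083 in edgeR's quasi-likelihood test). It passed with the replicate number as a block (0.45, adjusted p = 0.00404), in which 28.8% of all genes were called higher and 30.2% lower, without Control 2 (0.60, adjusted p = 0.0237) and without DZNep 4 (0.56, adjusted p = 0.0371). In the other 13 alternatives it did not pass. Among these the adjusted p was 0.0804 in DESeq2's Wald test and at most 0.211, in edgeR's test without Control 1.

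ZC3H13 (ENSG00000123200, chr13:45954465-46052759, minus strand), a zinc finger protein that helps to keep the writer in the nucleus, was at 7822, 4652, 4596 and 12447 normalized counts in Control and at 6004, 5660, 6054 and 8790 in DZNep. Replicate 4 was the highest in each group, and the Control libraries spread 2.71-fold from the lowest to the highest. The Control libraries with the most ZC3H13, 1 and 4, were also those with the largest mitochondrial shares, and the part of this in the result was not tested. The log2 fold change was −0.18 ± 0.32 (SE, adjusted p = 0.673 in edgeR's quasi-likelihood test), and without Control 4 it was 0.19 (adjusted p = 0.576). Within replicate numbers the log2 ratios were −0.38, 0.28, 0.40 and −0.50, below 0 in replicates 1 and 4 and above 0 in replicates 2 and 3.

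METTL16 (ENSG00000127804, chr17:2405562-2511891, minus strand) was at 2339, 2560, 2702 and 2612 normalized counts in Control and at 4173, 5626, 4335 and 3823 in DZNep. The groups did not overlap, and DZNep 2 was the highest library. The means were 2553 ± 154 and 4489 ± 787 (SD, n = 4 each). The fitted log2 fold change was 0.79 ± 0.15 (SE, adjusted p = 0.0025 in edgeR's quasi-likelihood test). METTL16 kept a log2 fold change of 0.67 to 0.87 over the 16 alternative settings.

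METTL16 is known for binding hairpins in the MAT2A mRNA, whose product makes S-adenosylmethionine, so the sites are shown beside the values of both transcripts. In the MAT2A reference transcript of 2817 bases (GENCODE, GRCh38, plus strand), the 3′ UTR of 1509 bases holds 6 matches to TACAGAGAA or TACAGAAAA in the sense direction, in capitals:
MAT2A site 1 (chr2:85543804-85543828): gcgtaggcTACAGAGAAgccttcaa
MAT2A site 2 (chr2:85544591-85544615): tgatgtcaTACAGAGAAgtcacagg
MAT2A site 3 (chr2:85544776-85544800): ggtgtagcTACAGAGAAaccagctt
MAT2A site 4 (chr2:85544891-85544915): ggcgtaagTACAGAGAAgccatcac
MAT2A site 5 (chr2:85545006-85545030): aggtgtccTACAGAAAAaccttggg
MAT2A site 6 (chr2:85545114-85545138): tggtgtggTACAGAGAAgccagctt
Of 49980 protein-coding transcripts of at least 1509 bases, 3.50% hold 1 or more matches in their last 1509 bases and 1, that of MAT2A itself, holds 6. Both the letters and the window length were taken from MAT2A, so its first place is a description and not a test. In other transcripts the last 1509 bases need not be 3′ UTR. MAT2A itself (ENSG00000168906) was at 2194, 7003, 5913 and 2107 normalized counts in Control and at 3419, 3852, 3231 and 2486 in DZNep. The Control libraries fell into a high pair, 2 and 3, and a low pair, 1 and 4, with the DZNep libraries between them, and the log2 fold change was −0.43 (adjusted p = 0.390 in edgeR's quasi-likelihood test). Within replicate numbers the MAT2A log2 ratios were 0.64, −0.86, −0.87 and 0.24, above 0 in replicates 1 and 4 and below 0 in replicates 2 and 3. Control 1 and 4 also had the larger mitochondrial shares, and the part of this was not tested. The log2 fold change moved with each Control library left out, at −0.66 without Control 1, −0.10 without Control 2, −0.25 without Control 3 and −0.67 without Control 4. It was −0.25 with the replicate block and −0.21 with limma, without passing the test in any of these. METTL16 counts over MAT2A counts were accordingly 1.07, 0.366, 0.457 and 1.24 in Control and 1.22, 1.46, 1.34 and 1.54 in DZNep, which overlap and carry no test.

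Of the erasers, ALKBH5 was higher in DZNep and FTO did not pass. ALKBH5 (ENSG00000091542, chr17:18183078-18209954, plus strand) was at 3951, 4229, 4215 and 4395 normalized counts in Control and at 6344, 6542, 5972 and 7408 in DZNep. The Control libraries varied little and all DZNep libraries lay above them. The means were 4198 ± 184 and 6566 ± 609 (SD, n = 4 each), a 1.56-fold ratio. The fitted log2 fold change was 0.62 ± 0.13 (SE, adjusted p = 0.00393 in edgeR's quasi-likelihood test).

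FTO (ENSG00000140718, chr16:53701692-54158512, plus strand) was at 2232, 3238, 2836 and 1953 normalized counts in Control and at 3136, 3238, 3231 and 2416 in DZNep. The groups overlapped, and replicate 4 was the lowest in each. The log2 fold change was 0.20 ± 0.19 (SE, adjusted p = 0.417 in edgeR's quasi-likelihood test), and leaving out 1 library moved it between 0.085 (without Control 4) and 0.33 (without Control 2), with no call. FTO counts over ALKBH5 counts were 0.565, 0.766, 0.673 and 0.444 in Control and 0.494, 0.495, 0.541 and 0.326 in DZNep, lower in DZNep in each of the 4 replicate pairs but overlapping between groups. The mean log2 ratio differed by −0.40 (two-sided exact permutation test, p = 0.171, and 0.171 after adjustment over the 2 ratios), so a difference between the erasers was not shown.

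Divided by exon length in GENCODE, the levels of the 10 transcripts can be set against each other as normalized counts per kb. In Control the order ran from ALKBH5 (1166 ± 51.0) through ZC3H13 (719 ± 360), WTAP (655 ± 53.4), CBLL1 (351 ± 66.0), METTL3 (310 ± 34.5), METTL16 (286 ± 17.3), RBM15 (264 ± 26.0), VIRMA (227 ± 47.4) and METTL14 (200 ± 19.7) to FTO (120 ± 27.2, all SD, n = 4). Of the neighbours in this order, only WTAP and CBLL1, and METTL14 and FTO, had ranges that did not overlap. In DZNep RBM15 stood at 936 ± 119 per kb, the third place in place of the seventh, next to WTAP at 1041 ± 82.6 and under ALKBH5 at 1824 ± 169. METTL14 per kb, 399 ± 44.5, was then above METTL3 per kb, 305 ± 5.73, whereas in Control it was below, and FTO stayed lowest at 141 ± 18.5. Exon lengths count every annotated exon of a gene, from 3.601 kb for ALKBH5 to 21.379 kb for FTO, and isoform use was not measured. Before this division FTO was not the lowest in Control, at 2565 ± 581 normalized counts beside 1232 ± 121 for RBM15 (SD, n = 4 each). The last place of FTO thus depends on its exon length.

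**Figure D3:**
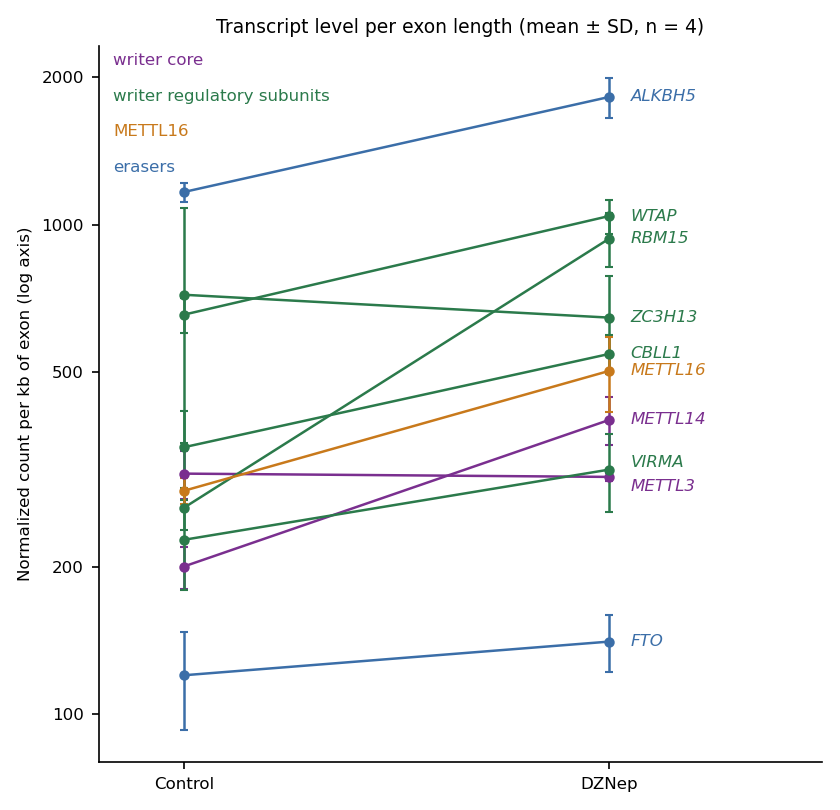
Normalized count per kb of annotated exon for the 10 genes in Control and DZNep, on a log axis. Points are means of 4 libraries with SD bars, and lines join the same gene. RBM15 climbed from 264 to 936 per kb, past METTL16, METTL3, CBLL1 and the mean of ZC3H13, and the lines of METTL14 and METTL3 cross.

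Of 14 m6A readers, which bind the mark, 3 were higher, 2 were lower and 9 did not pass, with a median log2 fold change of −0.04. These counts are near the shares of all genes tested, 19.1% higher and 21.8% lower. The highest was PRRC2A, a reader in neural tissue, at 24111 ± 3816 normalized counts in Control and 48644 ± 8028 in DZNep (SD, n = 4 each, log2 fold change 0.99, adjusted p = 0.00224 in edgeR's quasi-likelihood test). YTHDF2, which sends marked mRNA to decay, rose by a log2 fold change of 0.43 (adjusted p = 0.0488) and YTHDC1, the nuclear reader tied to splicing and export, by 0.42 (adjusted p = 0.0278). Both of these calls were narrow and each was lost without Control 1, 2 or 3 or DZNep 2 or 4, with YTHDF2 lost also without Control 4 or DZNep 1, at adjusted p-values of up to 0.114. The lower readers were YTHDC2, an RNA helicase best known from germ cells, which fell from 2584 ± 722 to 936 ± 219 normalized counts (log2 fold change −1.49, adjusted p = 0.000696), and RBMX, a splicing regulator that binds RNA opened by the mark, which fell from 18095 ± 2337 to 8777 ± 1416 (log2 fold change −1.07, adjusted p = 0.000772). With the replicate number as a block 5 readers were higher and 3 were lower, beside 28.8% and 30.2% of all genes. The added readers were YTHDF3, IGF2BP2 and IGF2BP3. IGF2BP3, named after its values were seen, spread 7.19-fold among the Control libraries, from 628 to 4521 normalized counts, and its log2 fold change was −1.28 without the block (adjusted p = 0.096) and −0.99 with it (adjusted p = 0.000876).

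Of 6 other m6A and m6Am methyltransferase genes and their partners, 0 were higher and 2 were lower, with a median log2 fold change of −0.15. With so few genes, this count and the next are not set apart from the 19.1% of all genes called higher and the 21.8% called lower. METTL4, which modifies U2 small nuclear RNA, was at 483 ± 153 normalized counts in Control and fell to 200 ± 18.2 in DZNep (SD, n = 4 each, log2 fold change −1.30, adjusted p = 0.00149 in edgeR's quasi-likelihood test). METTL5, which marks the RNA of the small ribosomal subunit, was just past the threshold, at 3556 ± 1389 in Control and 2001 ± 682 in DZNep (log2 fold change −0.86, adjusted p = 0.0499), and lost the call without Control 1 or 4 or without DZNep 1, 2 or 3, at an adjusted p of 0.101 to 0.134. Of 7 AlkB homologs other than the erasers FTO and ALKBH5, 1 was higher and 2 were lower, with a median of 0.23. ALKBH1, which acts on transfer RNA, rose from 687 ± 172 to 1237 ± 111 (log2 fold change 0.82, adjusted p = 0.00685). ALKBH3, a repair enzyme for alkylated nucleic acid, fell from 1040 ± 250 to 671 ± 32.5 (log2 fold change −0.66, adjusted p = 0.0156), and ALKBH6 fell from 349 ± 132 to 180 ± 54.6 (log2 fold change −0.99, adjusted p = 0.0252), a call lost without Control 1 or 4 or without DZNep 1, 2 or 3, at an adjusted p of up to 0.0709. With the block 3 of these homologs were higher and 2 were lower, ALKBH2 and ALKBH4 being added, beside 28.8% and 30.2% of all genes.

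**Figure D4:**
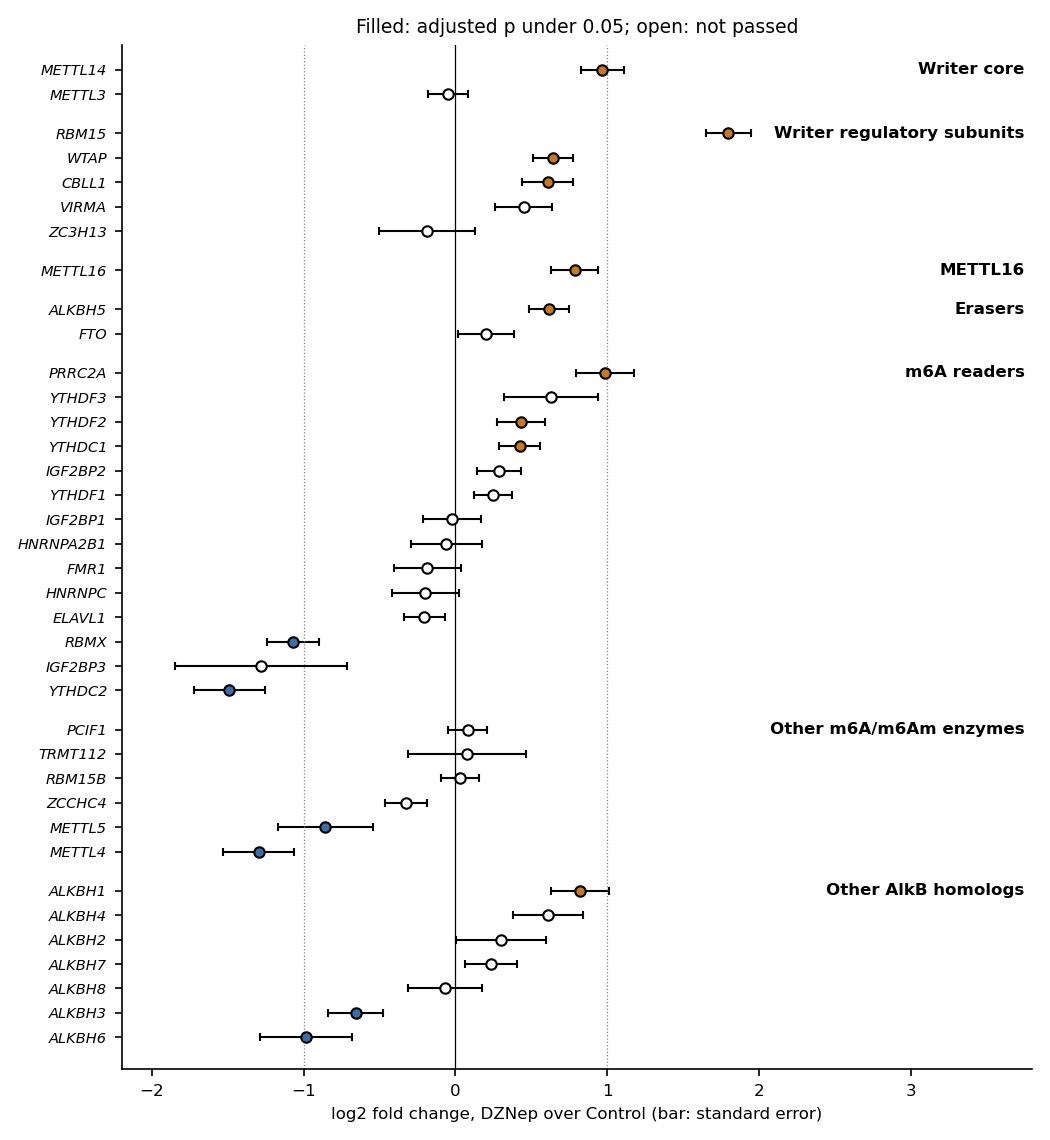
Log2 fold change of DZNep over Control with its standard error for the 10 writers and erasers and the 3 further lists, from edgeR's quasi-likelihood fit on 8 libraries. Filled points passed an adjusted p under 0.05 (orange higher, blue lower), open points did not, and dotted lines mark a log2 fold change of −1 and 1. RBM15 is the single writer or eraser past 1, and all blue points belong to the readers, the other methyltransferase genes and the other AlkB homologs.

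The genes whose log2 CPM ran most alike with RBM15 over the 8 libraries, among 8994 genes compared, were TAF8 (Pearson r 0.995), TMEM201 (0.992) and CASKIN2 (0.991), with log2 fold changes of 0.79, 1.03 and 1.01. All 3 had lower means in Control, so the treatment they share enters these values. For ZC3H13, the writer gene with the lowest log2 fold change, they were RTF1 (0.989), P3H4 (0.985) and LRFN1 (0.979), with log2 fold changes of −0.34, −0.09 and −0.19, none of which passed the test. These points share their libraries, and the values are a description.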

How the data were processed

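RNA of HEK293T cells was sequenced as 4 Control and 4 DZNep libraries, grouped by the treatment in the labels. The growth medium is DMEM in the labels and RPMI in the study's methods. The authors trimmed paired 150 bp reads (Trimmomatic 0.36), mapped them to GRCh38 (STAR 2.5.2b) and counted unique exonic reads per gene (featureCounts, Subread 1.5.2), and they deposited raw counts for 57500 genes and a normalized signal for 19118 genes. A check showed that normalized values are counts over 1 size factor for each library, and that the genes kept have at least 81 counts in all. The annotation release and strandedness are not given in the sources used here, so genes that overlap on the opposite strand are uncertain: METTL3, WTAP, ZC3H13, RBM15, CBLL1, FTO and ALKBH5 share 175 to 442 bp of exon with another gene, and METTL14, VIRMA and METTL16 share none. Of the called genes of the further lists, METTL5 and YTHDF2 share 20.0 and 24.7% of their exon bases with a gene on the opposite strand. ALKBH6 shares 25.1% with a gene on the same strand.

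Counts were tested with edgeR 4.0.16 in R 4.3.3 (TMM, filterByExpr, quasi-likelihood test, Benjamini-Hochberg) over 19171 genes. Before this, the fit recovered large known changes, set in a small share of the genes, in simulated counts. Recovery of smaller changes, or with as many genes changed as in these data, was not required. Library totals were 25043058 to 44902779. With 0 counts in Control 1, the shallowest library, a share of 1.2e-05% is still allowed (counting error only). Every pair of libraries within a group differed beyond sampling noise (lowest chi-square per degree of freedom 26.9), and each was counted as 1 replicate. Deviations of same-numbered libraries from their group means had correlations of 0.14, 0.49, 0.43 and 0.67 for replicates 1 to 4, weak in replicate 1. Correlations of differently numbered libraries were not kept, so these values do not show pairing by number. Same-numbered libraries were treated as pairs in the alternative with a replicate block. The main test had no block.

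Alternatives were DESeq2 1.42.0, median-ratio factors, library totals alone, no filter, at least 10 counts in every library, the replicate block, limma 3.58.1 on log2(normalized count + 1) or + 0.5, and leaving out each library. Symbols were matched for 56410 identifiers, and coordinates are GENCODE's. Promoters come from RefSeq, with an entry for 9 of 10 members. Named genes are the 10 members, up to 5 called genes of each further list by absolute log2 fold change, MAT2A, and the 3 genes most alike in expression to the members with the highest and lowest log2 fold change (average log2 CPM of at least 4). Any further gene was chosen with its values in view. The members and lists were chosen with earlier results of these data known, and the further lists were written from general knowledge.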

Additional observations from a re-analysis of the deposited data

Results flagged for a closer look

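In 2 of 46 groups of 4 libraries examined, 1 library stood apart from the other 3 by Dixon's test. ZC3H13 in DZNep replicate 4 had 8790 normalized counts, against 5660 to 6054 in the other DZNep libraries. FTO in DZNep replicate 4 had 2416 normalized counts, against 3136 to 3238. Chance alone flags about 1 in 20 such groups. DZNep replicate 4 also had the highest mitochondrial share of the DZNep libraries, 10.1%, and whether this has a part in either value was not tested.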

How the results depend on the processing

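Among the 10 writers and erasers, the 6 called genes kept their direction and an adjusted p under 0.05 in all 16 alternatives, where the log2 fold change was 1.73 to 1.89 for RBM15, 0.91 to 1.04 for METTL14, 0.59 to 0.71 for WTAP, 0.48 to 0.68 for CBLL1, 0.67 to 0.87 for METTL16 and 0.56 to 0.69 for ALKBH5. The sign turned for METTL3 with library totals alone (0.020) and without Control 3 (0.012), and for ZC3H13 without Control 4 (0.19). Leaving out 1 library gave −0.11 to 0.012 for METTL3 and −0.36 to 0.19 for ZC3H13. Past both thresholds there were 2 members, METTL14 being the added one, with library totals alone, and 1 to 2 when a library was left out (2 without Control 2 or 3 or DZNep 1 or 4). With the replicate block, 7 members were called in place of 6 (VIRMA being added), 8 readers in place of 5 and 5 other AlkB homologs in place of 3. That fit called 28.8% of all genes higher and 30.2% lower. Among the further methyltransferase genes it added ZCCHC4. None of the called members or called genes of the further lists that the text names lost its call under it. Leaving out 1 library gave 3 to 5 readers (3 without Control 1 or 3 or DZNep 2 or 4), 1 to 2 of the other methyltransferase genes and partners, and 2 to 3 other AlkB homologs (2 without Control 1 or DZNep 1, 2 or 3). The other methyltransferase genes and partners called were 1 in place of 2 with median-ratio factors, with at least 10 counts in every library and with either limma fit, METTL5 being the one lost. Without a filter YTHDF2 (adjusted p = 0.0943) and YTHDC1 (0.0909) lost their calls, as did ALKBH3 with library totals alone (0.0565), and the causes were not tested. Without a filter 1 reader was higher and 3 were lower, in place of 3 and 2. The other AlkB homologs were 2 higher and 1 lower with library totals alone, and 2 and 2 with DESeq2, median-ratio factors, no filter or either limma fit, in place of 1 and 2. The METTL3 to METTL14 log2 ratio differed by −1.08 to −0.96 when a library was left out, and the FTO to ALKBH5 ratio by −0.54 to −0.23. On the same 19171 genes, scaling moved the median log2 fold change of all genes from −0.03 (TMM) to 0.05 (library totals alone).

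The data are 1 dose, 1 time and 1 cell line, with 4 libraries a group. At this size an exact test of 1 ratio passes the correction over 2 ratios only if both reach the smallest p, and a transcript level gives neither protein nor m6A.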
